A study of Homo sapiens with 4 samples.

Results

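The gene group described here holds 10 of the 42113 gene models measured in A549 cells: FDXR, SCO2, TP53I3, GLS2, C12orf5 (now named TIGAR), CPT1C, PANK1, FUCA1, ALOX5 and ACER2. They were chosen by name as p53 target genes of metabolism and of the mitochondrion, with earlier results of these data known. All 10 names were found in each of the 4 libraries. A549 is an established human lung cancer cell line that carries wild-type p53. The cells had been stably infected with lentivirus and carried a short hairpin RNA (shRNA) against LIMA1 or a negative control shRNA. Nutlin-3a, which frees p53 from its ubiquitin ligase MDM2, was given at 10 µM, and RNA was taken at 24 h. The groups were LIMA1 shRNA with nutlin-3a, control shRNA with nutlin-3a, LIMA1 shRNA untreated and control shRNA untreated, with 1 library in each. The labels do not say whether a line was a pool or a clone, and the sample titles write si where the protocols write shRNA.

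p53 is a transcription factor that binds DNA as a tetramer and is best known for halting the cell cycle and inducing cell death. It also switches on enzymes that act on mitochondrial electron transfer, glutamine, sugar phosphates, coenzyme A and lipids. When MDM2 is blocked, p53 accumulates and its target genes are transcribed, without the DNA damage that usually activates it. The question set by the design is how the loss of LIMA1, an actin-binding protein gene, changes that activation.

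The libraries held 15.2 to 16.7 M fragments, and values are normalized fragment counts, in which 1 fragment has the same value for every gene of a library, so they are not scaled by gene length. LIMA1 itself was low in both LIMA1 shRNA libraries, at 133 normalized counts with nutlin-3a against 866 in control shRNA cells with nutlin-3a, and at 68.3 untreated against 416 in untreated control shRNA cells. The p53 targets MDM2 and CDKN1A were 18.3-fold and 40.9-fold higher with nutlin-3a in LIMA1 shRNA cells, and 14.96-fold and 31.97-fold higher in control shRNA cells. All 5 epithelial markers looked up were present in the 4 libraries, with summed levels of 128940 to 157161 normalized counts. Single markers differed between the lines. EPCAM was lower in LIMA1 than in control shRNA cells, at 31.1 against 111 with nutlin-3a and 82.1 against 229 untreated. KRT19 was higher in LIMA1 shRNA cells, at 5840 against 3420 with nutlin-3a and 2061 against 1278 untreated. Markers of the alveolar type 2 cell were at or near 0, with sums of 0 to 2.97, and those of endothelial cells summed to 3.22 to 12.9 and those of fibroblasts to 30.02 to 123. Nothing in the labels says from how many cultures a library came. With 1 library per group no difference can be set against a spread between replicates, no test was made, and each difference compares libraries rather than conditions.

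The stretch of DNA before a gene's start is shown for FDXR and PANK1, because each holds a full match to the p53 decamer, the unit that occurs in pairs in a p53 response element. Both sequences are 250 bases from RefSeq on GRCh38.p14, read on the minus strand and ending just before an annotated start, and the capitals mark the decamer. Each gene has 2 RefSeq starts, and the other start of each had no full decamer. The FDXR stretch lies at chr17:74872995-74873244 and its decamer at positions -11 to -2. The PANK1 stretch lies at chr10:89645243-89645492 and its decamer is at positions -23 to -14.
FDXR: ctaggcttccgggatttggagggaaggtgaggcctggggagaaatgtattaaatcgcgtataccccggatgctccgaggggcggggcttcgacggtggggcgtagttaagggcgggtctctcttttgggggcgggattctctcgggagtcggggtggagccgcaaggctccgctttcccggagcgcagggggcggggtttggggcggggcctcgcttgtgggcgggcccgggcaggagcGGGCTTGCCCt
PANK1: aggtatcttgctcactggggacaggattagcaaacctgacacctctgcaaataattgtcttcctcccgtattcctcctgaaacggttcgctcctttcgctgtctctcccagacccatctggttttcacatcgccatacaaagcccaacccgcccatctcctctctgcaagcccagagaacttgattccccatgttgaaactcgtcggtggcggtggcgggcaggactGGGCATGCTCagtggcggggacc

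A full decamer was present in 6.63% of the 35116 RefSeq windows of 300 bases. Each window runs from 250 bases before a start to 50 bases after it. The search pattern, though not each sequence that matches it, reads the same on both strands. Windows were found for 8 of the 10 genes, and not for SCO2 and ALOX5. The closest pair of adjoining decamers in each gene's windows is shown next, with no spacer allowed and with the fixed C and G of each decamer, CNNG, required and in capitals. Mismatches are counted at the other positions, and the pair search overlaps the decamer search.
GLS2: aggCttGctggggCatGcgc
PANK1: gggCagGactgggCatGctc
FDXR: gggCagGagcgggCttGccc
C12orf5: ggcCtcGcccggcCctGagt
CPT1C: ctcCcaGctgagcCttGttc
FUCA1: cgaCtcGggccaaCctGtcc
ACER2: aggCgaGgcgaggCggGgcg
TP53I3: cctCcgGctacccCagGtcc
GLS2 and PANK1 had 2 mismatches, which 0.359% of the 27305 genes with a window reached or bettered, and FDXR had 3 mismatches (1.37% of genes). The GLS2 pair lies after the start, at positions 30 to 49 (chr12:56488113-56488132, minus strand). C12orf5, CPT1C and FUCA1 had 6 mismatches, which 28.98% of genes reached or bettered. ACER2 had 7 (46.2% of genes) and TP53I3 had 10 (72.8% of genes). A match is a description of letters, and its absence says only that these letters are not in the window.

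Nutlin-3a went with higher levels of 8 of the 10 genes in both cell lines, by 2.39-fold to 20.6-fold in LIMA1 shRNA cells and by 2.51-fold to 20.3-fold in control shRNA cells. The same 8 genes were called in each line, and the genes not called were SCO2 and CPT1C. A gene was called at a difference of at least 1 between log2(normalized count + 1) values, and counted as measured with a 4-library mean of 30 or more. By this rule 7.29% of the 12742 measured genes were called higher with nutlin-3a in LIMA1 shRNA cells and 5.54% in control shRNA cells. None of the 10 was called lower, where 6.08% of measured genes were in LIMA1 shRNA cells and 5.64% in control shRNA cells. The median difference over the 10 genes was 3.06 in LIMA1 shRNA cells, against -0.02 over all measured genes, and 2.91 in control shRNA cells, against -0.02. Because the 10 genes were chosen with earlier results of these data known, these shares and medians are a description and not a test. All 10 genes passed the mean of 30. GLS2 was under 30 in both untreated libraries and ALOX5 in the untreated control library, so their entry rests on the nutlin-3a libraries. In bulk RNA, fewer cells that express a gene and less RNA per cell cannot be told apart.

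**Figure D1:**
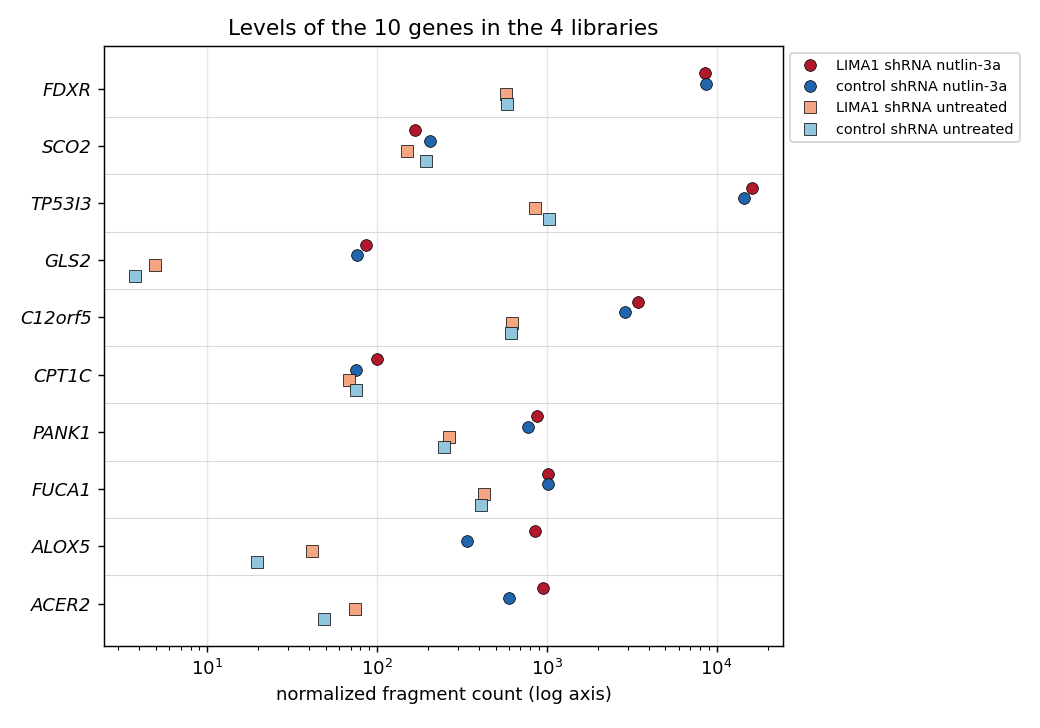
Normalized fragment count (log axis) of each of the 10 genes in the 4 libraries, with circles for nutlin-3a and squares for untreated cells. The 2 circles lie right of the 2 squares with a wide gap for 8 genes, from FUCA1 (1023 and 1022 against 427 and 408) to TP53I3, while those of SCO2 and CPT1C lie close to the squares.

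FDXR encodes ferredoxin reductase, a mitochondrial flavoprotein that passes electrons from NADPH to ferredoxins for steroid hydroxylation and iron-sulfur cluster assembly. It stood at 8596 normalized counts in LIMA1 shRNA cells and 8721 in control shRNA cells with nutlin-3a, and at 576 in LIMA1 shRNA cells and 581 in control shRNA cells without it. Levels were almost the same in both lines at each treatment, so the libraries separate by nutlin-3a alone. The nutlin-3a ratio was 14.9 in LIMA1 shRNA cells (exact 95% counting interval 13.7 to 16.3) and 15.02 in control shRNA cells (13.8 to 16.3). These intervals, like all others here, come from the counts of single libraries and so cover counting error only. No molecular identifiers are mentioned for these reads, so duplicate reads may have been counted and the intervals may be too narrow.

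TP53I3 encodes a quinone reductase of the zeta-crystallin family that uses NADPH and is known as a p53-inducible gene. With nutlin-3a it had 16203 normalized counts in LIMA1 shRNA cells and 14409.6 in control shRNA cells, and without it 852 in LIMA1 shRNA cells and 1025 in control shRNA cells. The order of the lines differed between treatments, LIMA1 shRNA being the higher with nutlin-3a and the lower without. Its nutlin-3a ratio was 19.02 in LIMA1 shRNA cells (17.8 to 20.4) and 14.1 in control shRNA cells (13.2 to 14.97). Scaled by transcript length, TP53I3 had the highest level of the 10 genes in every library, at 8110 normalized counts per kb in LIMA1 shRNA cells and 7212 in control shRNA cells with nutlin-3a, against 426 in LIMA1 shRNA cells and 513 in control shRNA cells untreated. Lengths are those of the longest principal transcript in GENCODE 29. In RefSeq TP53I3 overlaps FAM228B, which had 37.5 and 47.6 normalized counts with nutlin-3a in LIMA1 and control shRNA cells, against 12.9 and 21.7 untreated.

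SCO2 encodes a copper chaperone needed to assemble cytochrome c oxidase. Its values were 167 normalized counts in LIMA1 shRNA cells and 205 in control shRNA cells with nutlin-3a, and 151 in LIMA1 shRNA cells and 194 in control shRNA cells untreated. The 4 libraries overlapped by treatment and ordered by line, with both control shRNA libraries above both LIMA1 shRNA libraries. Its nutlin-3a ratio was 1.11 in LIMA1 shRNA cells (0.884 to 1.40) and 1.06 in control shRNA cells (0.864 to 1.28), so both intervals held 1. SCO2 values were not whole fragments, and in RefSeq the gene overlaps TYMP and NCAPH2. TYMP had 80.9 and 129.5 normalized counts with nutlin-3a in LIMA1 and control shRNA cells, against 62.1 and 94.3 untreated. NCAPH2 had 297 and 264 with nutlin-3a in LIMA1 and control shRNA cells, against 778 and 680 untreated. Reads of these 3 genes may be split between them, and the part of that in the SCO2 values was not tested.

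GLS2 encodes the liver-type glutaminase, a mitochondrial enzyme that turns glutamine into glutamate. It was among the lowest of the group, with 86.8 normalized counts in LIMA1 shRNA cells and 76.4 in control shRNA cells with nutlin-3a, and 4.95 in LIMA1 shRNA cells and 3.77 in control shRNA cells untreated. The untreated values are 5 and 4 fragments, so the libraries separate by treatment but the ratio is loose. It was 17.6 in LIMA1 shRNA cells (7.22 to 55.5) and 20.3 in control shRNA cells (7.60 to 76.3). In RefSeq GLS2 overlaps LOC124902944 and SPRYD4. SPRYD4 had 405 and 468 normalized counts with nutlin-3a in LIMA1 and control shRNA cells, against 270.1 and 325 untreated. Whether the counting used strand is not given in the sources here, so reads of overlapping genes may not be told apart.

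C12orf5, or TIGAR, encodes a fructose bisphosphatase that lowers the signal for glycolysis and favours the pentose phosphate pathway. Levels were 3434 normalized counts in LIMA1 shRNA cells and 2874 in control shRNA cells with nutlin-3a, and 623 in LIMA1 shRNA cells and 616 in control shRNA cells untreated. The untreated libraries were alike, and the nutlin-3a library of LIMA1 shRNA cells stood above that of control shRNA cells. Its nutlin-3a ratio was 5.51 in LIMA1 shRNA cells (5.06 to 6.01) and 4.67 in control shRNA cells (4.29 to 5.09). In RefSeq it overlaps RPS15P7.

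PANK1 encodes a pantothenate kinase, which starts the synthesis of coenzyme A. It had 882 normalized counts in LIMA1 shRNA cells and 775 in control shRNA cells with nutlin-3a, and 264 in LIMA1 shRNA cells and 248 in control shRNA cells untreated. Treatment separated the libraries, with little difference between lines. The nutlin-3a ratio was 3.34 in LIMA1 shRNA cells (2.91 to 3.85) and 3.12 in control shRNA cells (2.72 to 3.61). In RefSeq PANK1 overlaps MIR107 and PANK1-AS1, and its untreated control value, 263.5 fragments, was not whole.

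CPT1C encodes the brain form of carnitine palmitoyltransferase, an enzyme family that moves fatty acids towards oxidation. It was at 101 normalized counts in LIMA1 shRNA cells and 75.4 in control shRNA cells with nutlin-3a, and at 68.3 in LIMA1 shRNA cells and 75.4 in control shRNA cells untreated. The LIMA1 shRNA library with nutlin-3a was the highest. Its ratio to the control shRNA library with nutlin-3a was 1.34, with a counting interval that held 1 (0.977 to 1.83). The ratio was 1.48 in LIMA1 shRNA cells (1.07 to 2.04) and 1.0005 in control shRNA cells (0.721 to 1.39).

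FUCA1 encodes the lysosomal fucosidase that removes fucose from glycoproteins and glycolipids. Its levels were 1023 normalized counts in LIMA1 shRNA cells and 1022 in control shRNA cells with nutlin-3a, and 427 in LIMA1 shRNA cells and 408 in control shRNA cells untreated. This was the smallest ratio among the 8 called genes, 2.39 in LIMA1 shRNA cells (2.13 to 2.69) and 2.51 in control shRNA cells (2.24 to 2.81).

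ALOX5 encodes the lipoxygenase that starts leukotriene synthesis and is best known from leukocytes. It had 854 normalized counts in LIMA1 shRNA cells and 341 in control shRNA cells with nutlin-3a, and 41.6 in LIMA1 shRNA cells and 19.8 in control shRNA cells untreated. All 4 libraries were apart from each other, by treatment first and then by line. Its nutlin-3a ratio was 20.6 in LIMA1 shRNA cells (15.1 to 28.8) and 17.3 in control shRNA cells (11.1 to 28.2). In RefSeq ALOX5 overlaps LOC102724323, and the part of that locus in the ALOX5 values was not tested. The leukocyte marker PTPRC was at 0 in every library except untreated control shRNA cells, where it was at 0.943, and CD3E was at 0 in all 4. Of the 6 leukocyte markers, CD14 was highest. It had 65.4 and 105 normalized counts with nutlin-3a in LIMA1 and control shRNA cells, against 75.2 and 96.1 untreated. Unlike ALOX5, CD14 was lower in LIMA1 shRNA cells at both treatments, and with nutlin-3a it was lower in LIMA1 shRNA cells and higher in control shRNA cells. ITGAM had 25.7 and 25.8 normalized counts with nutlin-3a in LIMA1 and control shRNA cells, against 4.95 and 16.97 untreated, and so was higher with nutlin-3a in both lines, as ALOX5 was. LYZ had 21.7 and 3.22 with nutlin-3a in LIMA1 and control shRNA cells, against 22.8 and 3.97 untreated, and so was higher in LIMA1 shRNA cells at both treatments, as ALOX5 was. SPI1 was at most 0.993. The part of these markers in the ALOX5 values was not tested. The summed level of these markers was 104 to 135 normalized counts over the 4 libraries.

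ACER2 encodes an alkaline ceramidase of the Golgi that releases sphingosine from ceramide. It stood at 949.8 normalized counts in LIMA1 shRNA cells and 602 in control shRNA cells with nutlin-3a, and at 74.2 in LIMA1 shRNA cells and 49.0 in control shRNA cells untreated. As for ALOX5, the LIMA1 shRNA library was the higher at each treatment. The nutlin-3a ratio was 12.8 in LIMA1 shRNA cells (10.1 to 16.4) and 12.3 in control shRNA cells (9.24 to 16.6).

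**Figure D2:**
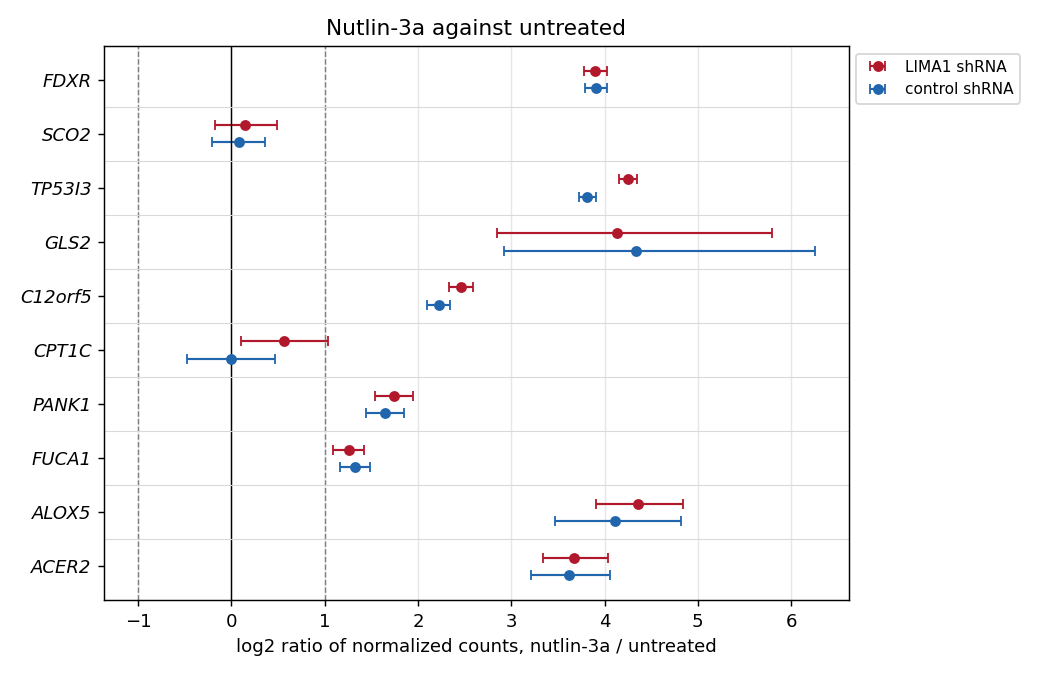
log2 ratio of normalized counts, nutlin-3a over untreated, for each gene in LIMA1 shRNA and control shRNA cells, with exact 95% counting intervals and dashed lines at -1 and 1. The intervals of 8 genes lie right of 1 in both lines, those of SCO2 span 0, and TP53I3 and C12orf5 are shifted to the right in LIMA1 shRNA cells.

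By size of difference, 5 of the 8 called genes lay close together: ALOX5, TP53I3, FDXR, GLS2 and ACER2 had differences of 3.66 to 4.33 in LIMA1 shRNA cells and 3.59 to 4.04 in control shRNA cells. They ranked 49th to 75th of the 12742 measured genes in LIMA1 shRNA cells and 51st to 67th in control shRNA cells. Counting intervals of ALOX5, GLS2, FDXR and ACER2 overlapped in each line, and their order was not tested. C12orf5 came next, at 2.46 in LIMA1 shRNA cells and 2.22 in control shRNA cells, then PANK1 (1.74 and 1.64) and FUCA1 (1.26 and 1.32). The intervals of C12orf5 and PANK1 did not overlap in either line. Those of PANK1 and FUCA1 were apart in LIMA1 shRNA cells and overlapped in control shRNA cells. Overlap alone does not settle an order, and the difference between the 2 genes was not tested. SCO2 lay above 63.2% of measured genes in LIMA1 shRNA cells and above 58.3% in control shRNA cells, and CPT1C above 83.4% and 51.6%.

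Per kb of transcript, FDXR was second to TP53I3 with nutlin-3a, at 4585 normalized counts per kb in LIMA1 shRNA cells and 4651 in control shRNA cells, and C12orf5 followed at 1234 and 1033. GLS2, at 33.1 and 29.1, and CPT1C, at 34.6 and 25.9, were the lowest with nutlin-3a. In untreated cells SCO2 was in the middle of the group, at 143 in LIMA1 shRNA cells and 185 in control shRNA cells. GLS2 (1.89 and 1.44) and ALOX5 (16.6 and 7.90) were then the lowest.

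LIMA1 shRNA cells differed little from control shRNA cells for most of the group, with ALOX5 and ACER2 standing above the rest at both treatments. With nutlin-3a, 1 of the 10 genes, ALOX5, was called higher and 0 lower, where 1.26% of the measured genes were called higher and 1.94% lower. In untreated cells ALOX5 was again the 1 gene called higher, with 0 lower, where 1.04% of measured genes were called higher and 2.05% lower. The median difference over the 10 genes was 0.18 with nutlin-3a, against 0.03 over all measured genes, and 0.04 untreated, against 0.02. The untreated median was -0.01 with upper-quartile scaling and -0.0052 with equal totals.

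ALOX5 was 2.502-fold higher in LIMA1 shRNA cells, relative to control shRNA cells, with nutlin-3a (2.202 to 2.85) and 2.10-fold higher untreated (1.22 to 3.73). The difference lay above 99.4% of measured genes with nutlin-3a and above 99.003% untreated. The untreated value rests on 42 and 21 fragments, and its difference of 1.03 dropped to 0.98 with upper-quartile scaling, under the size for a call. ACER2 was 1.58-fold higher with nutlin-3a (1.42 to 1.75) and 1.51-fold higher untreated (1.05 to 2.2), above 96.6% and 96.5% of measured genes, and was not called.

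With nutlin-3a, C12orf5 and PANK1 were higher in LIMA1 shRNA cells beyond counting error, by 1.19-fold (1.14 to 1.26) and 1.14-fold (1.03 to 1.26). With equal totals the log2 difference of PANK1 fell from 0.186 to 0.137. That drop is larger than its lower limit of 0.043 on the log2 scale, so the PANK1 result depends on the scaling. Untreated ratios were 1.01 for C12orf5 (0.906 to 1.13) and 1.06 for PANK1 (0.895 to 1.27). TP53I3 was 1.12-fold higher in LIMA1 shRNA cells with nutlin-3a (1.10 to 1.15) and 0.832-fold untreated (0.760 to 0.910). Its log2 difference with nutlin-3a, 0.169, moved to 0.120 with equal totals and 0.132 with upper-quartile scaling. SCO2 was at 0.816 of its control level with nutlin-3a (0.660 to 1.01) and at 0.776 untreated (0.624 to 0.960). FDXR was level between lines, at 0.986 with nutlin-3a (0.956 to 1.02) and 0.992 untreated (0.884 to 1.11). So was FUCA1, at 1.0002 (0.915 to 1.09) and 1.05 (0.914 to 1.2). For GLS2 the ratio of lines was 1.14 with nutlin-3a (0.821 to 1.57) and 1.31 untreated (0.282 to 6.61), and for CPT1C it was 1.34 (0.977 to 1.83) and 0.905 (0.646 to 1.27). A standing difference between the infected lines and an action of the hairpin on LIMA1 cannot be told apart here.

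**Figure D3:**
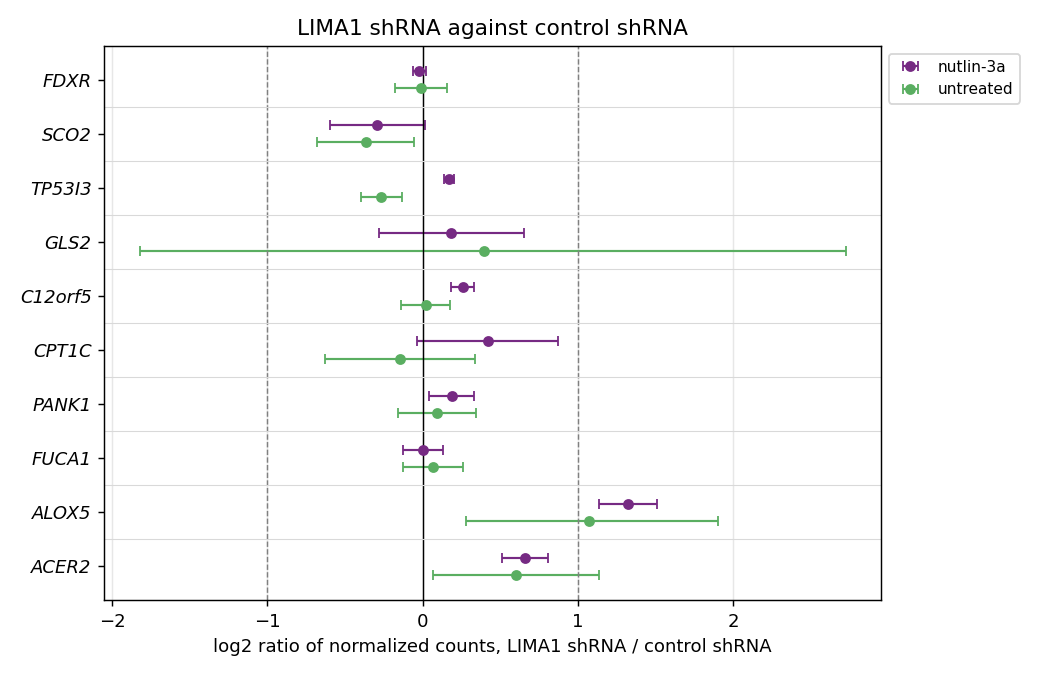
log2 ratio of normalized counts, LIMA1 shRNA over control shRNA, with nutlin-3a and untreated, with exact 95% counting intervals and dashed lines at -1 and 1. The ALOX5 points lie right of 1 at both treatments, ACER2 lies right of 0, TP53I3 on opposite sides of 0, and the untreated GLS2 interval is the widest.

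The response to nutlin-3a was not smaller in LIMA1 shRNA cells for any of the 10 genes by more than counting error. Taking the difference of the 2 responses, 0 genes were called higher and 0 lower, where 1.27% of measured genes were called higher and 0.816% lower. The median over the group was 0.08, against 0.01 over all measured genes. TP53I3 had a larger response in LIMA1 shRNA cells by 0.44 on the log2 scale (exact conditional 95% counting interval of the ratio of ratios 0.30 to 0.57), and C12orf5 by 0.24 (0.06 to 0.41). The TP53I3 value is made up of a higher level with nutlin-3a and a lower level without it. For FDXR the difference of responses was -0.01 (-0.18 to 0.16) and for FUCA1 -0.07 (-0.30 to 0.17). ALOX5 and ACER2, which differed most between the lines, had values of 0.29 (-0.60 to 1.07) and 0.07 (-0.50 to 0.61). CPT1C had the largest value, 0.55 (-0.11 to 1.23), on 69 to 94 fragments per library. For GLS2 the value was -0.14 and the interval ran from -2.59 to 2.07, so a difference was not detectable at this depth.

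Relatives that do related chemistry were looked at for 8 of the 10 genes. Of 19 relatives listed, 12 were measured, and 0 of those were called with nutlin-3a in either line. Of all measured genes, 7.29% were called higher and 6.08% lower in LIMA1 shRNA cells, and 5.54% and 5.64% in control shRNA cells. Beside these shares, a count of 0 does not set the 12 relatives apart. Their median difference was -0.08 in LIMA1 shRNA cells and 0.07 in control shRNA cells. The pantothenate kinases PANK2, PANK3 and PANK4 lay between -0.21 and 0.07 in LIMA1 shRNA cells and between -0.09 and 0.15 in control shRNA cells. FUCA2, a secreted fucosidase, was at -0.18 and -0.28, and the alkaline ceramidase ACER3 at -0.19 and -0.15. CRYZ, the zeta-crystallin related to TP53I3, was at -0.12 and 0.08.

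PFKFB2 was at 0.62 in LIMA1 shRNA cells and 0.97 in control shRNA cells, where it came nearest to a call among the relatives. In LIMA1 shRNA cells CPT1B and PFKFB4 were nearer. PFKFB2 belongs to the bifunctional enzymes that make and break the sugar phosphate cleaved by TIGAR. Its relative PFKFB4 was at -0.73 and -0.93 and PFKFB3 at 0.21 and 0.22. SCO1 was at -0.17 and -0.30. Of the carnitine palmitoyltransferases, CPT1A was at -0.04 and 0.06, and CPT1B, whose values were not whole fragments, at 0.75 and 0.39. No other lipoxygenase passed the mean of 30, and ACER1 was at 0 in all 4 libraries.

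**Figure D4:**
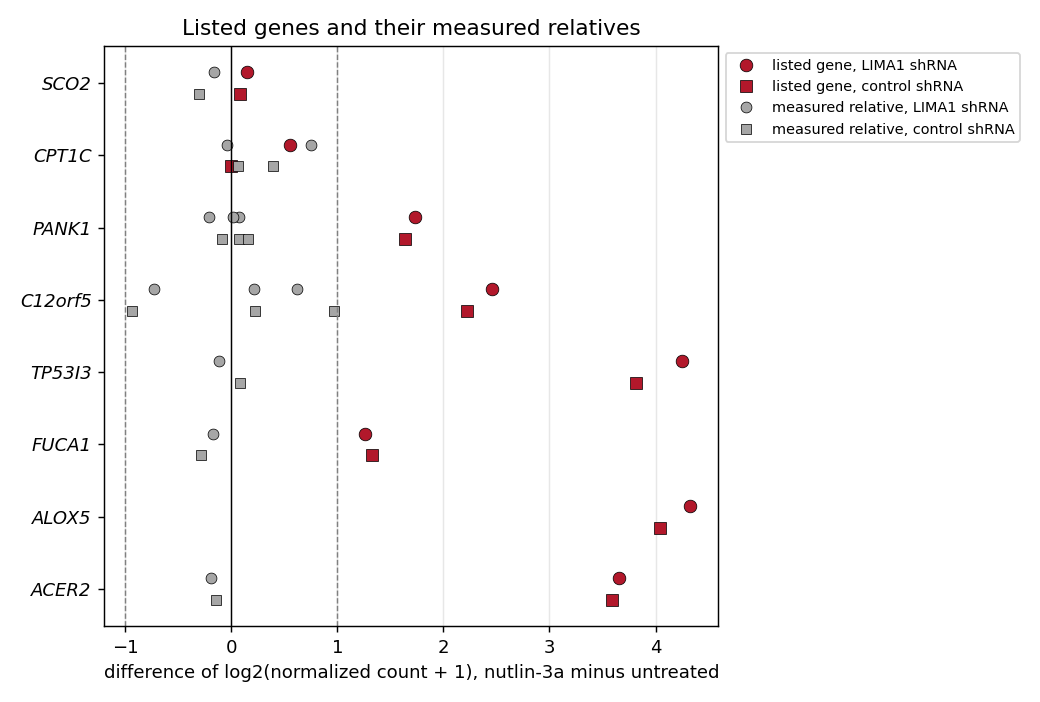
Difference of log2(normalized count + 1), nutlin-3a minus untreated, for 8 of the genes (red) and their measured relatives (grey), in LIMA1 shRNA cells (circles) and control shRNA cells (squares). The grey points lie between -0.93 and 0.97, inside the dashed lines at -1 and 1, and the red points of 6 genes lie right of 1.

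Genes acting beside these enzymes were mostly level with nutlin-3a. So were most measured genes, with 7.29% called higher and 6.08% lower in LIMA1 shRNA cells, and 5.54% and 5.64% in control shRNA cells. In the iron-sulfur and ferredoxin list, 1 of 14 measured genes was called higher in each line. That gene was ISCU, the scaffold on which iron-sulfur clusters are built, at 3317 and 3152 normalized counts with nutlin-3a in LIMA1 and control shRNA cells, against 874 and 918 untreated. FDX1 is a ferredoxin that takes electrons from FDXR. It had 518 and 541 normalized counts with nutlin-3a in LIMA1 and control shRNA cells, against 452 and 531 untreated. The ferredoxin gene FDX1L was 1.29-fold higher with nutlin-3a in LIMA1 shRNA cells (1.03 to 1.61) and 1.70-fold in control shRNA cells (1.38 to 2.10). FDX1 and FDX1L were not called. Of 26 genes for cytochrome c oxidase subunits and assembly factors, the complex that SCO2 serves, 0 were called in either direction and the medians were 0.03 in LIMA1 shRNA cells and 0.04 in control shRNA cells.

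Carnitine and fatty acid oxidation genes had 0 of 18 called higher and 1 called lower in each line, the acyl-CoA synthetase ACSL5 (-1.75 in LIMA1 shRNA cells and -2.17 in control shRNA cells). ACSL4, another acyl-CoA synthetase, was level with nutlin-3a but was called higher in LIMA1 shRNA cells at both treatments, at 2621 against 1258 normalized counts with nutlin-3a and 2583 against 1187 untreated, LIMA1 before control shRNA cells. The dehydrogenase ACADL was called lower in LIMA1 shRNA cells with nutlin-3a (-1.02) and was at -0.67 untreated. No other gene of the 12 lists was called between the lines. In coenzyme A synthesis, 0 of 5 measured genes were called in LIMA1 shRNA cells and 1, the carrier SLC25A42, was called higher in control shRNA cells (0.72 and 1.02). Shares of all measured genes called with nutlin-3a were 7.29% higher and 6.08% lower in LIMA1 shRNA cells, and 5.54% and 5.64% in control shRNA cells. Between the lines they were 1.26% higher and 1.94% lower with nutlin-3a, and 1.04% and 2.05% untreated.

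In the leukotriene and prostaglandin list 0 of 6 measured genes were called in either line. Over all measured genes, 7.29% and 5.54% were called higher and 6.08% and 5.64% lower, LIMA1 before control shRNA cells. ALOX5AP, which presents arachidonic acid to ALOX5, had 6.43 and 0.993 normalized counts with nutlin-3a in LIMA1 and control shRNA cells, against 0 and 1.89 untreated. LTC4S, the leukotriene C synthase, was at 0.993 in control shRNA cells with nutlin-3a and at 0 in the other 3 libraries. LTA4H, the leukotriene A hydrolase, had 2770.05 and 2988 normalized counts with nutlin-3a in LIMA1 and control shRNA cells, against 2664 and 2636 untreated. ALOX5 was therefore measured beside low counts of ALOX5AP and LTC4S and a level count of LTA4H.

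Ceramide and sphingosine genes had 3 of 13 called higher in LIMA1 shRNA cells and 0 in control shRNA cells. They were the ceramide synthases CERS4 (1.14 in LIMA1 shRNA cells and 0.70 in control shRNA cells) and CERS5 (1.07 and 0.72) and the acid sphingomyelinase SMPD1 (1.04 and 0.99). The values on either side of the call size were close, and the counts do not show that the lines differ. In the glutamine and glutathione list, 1 of 12 was called higher in each line, the glutathione peroxidase GPX1 (1.72 in LIMA1 shRNA cells and 1.59 in control shRNA cells). The glutamine transporter SLC1A5 (-1.52 and -0.86) and the transaminase GPT2 (-1.59 and -0.69) were called lower in LIMA1 shRNA cells only. Glycolysis and pentose phosphate genes had 0 of 10 called in either line. Beside these counts, 7.29% of all measured genes were called higher in LIMA1 shRNA cells and 5.54% in control shRNA cells. The shares called lower were 6.08% and 5.64%. Counts of 1 of 12 and 0 of 10 are near these shares.

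Lysosomal glycosidases, the group to which FUCA1 belongs, had 4 of 14 called higher in LIMA1 shRNA cells and 3 in control shRNA cells, with medians of 0.65 and 0.54. Among all measured genes, 7.29% and 5.54% were called higher and 6.08% and 5.64% lower. IDUA, an iduronidase whose values were not whole fragments, was at 1.74 in LIMA1 shRNA cells and 1.27 in control shRNA cells. The glucosidase GAA was at 1.19 and 1.05, the mannosidase MAN2B1 at 1.05 and 1.03 and the sialidase NEU1 at 1.18 and 0.88. None of the 14 was called lower. FUCA1, at 1.26 in LIMA1 shRNA cells, lay within their range, and at 1.32 in control shRNA cells it lay just above the highest of them.

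Among 18 other metabolic genes reported elsewhere as p53-activated, 16 were measured and 6 were called higher in each line, with medians of 0.63 in LIMA1 shRNA cells and 0.58 in control shRNA cells. They were the fatty acid hydroxylases CYP4F2 (4.16 and 3.58) and CYP4F3 (1.54 and 1.54), the proline dehydrogenase PRODH (2.76 and 2.09), the creatine synthesis enzyme GAMT (2.16 and 1.95), ALDH4A1 (1.37 and 1.11) and the AMPK subunit PRKAB1 (1.36 and 1.23). CYP4F2 and CYP4F3 are close relatives, so reads could be exchanged between them. PCK2 was called lower in LIMA1 shRNA cells (-1.35, against -0.41 in control shRNA cells). Of 10 metabolic genes reported as p53-repressed, 1 was called lower in each line, the hexokinase HK2 (-1.68 and -1.43), with medians of -0.25 and -0.22. Shares over all measured genes were 7.29% called higher in LIMA1 shRNA cells and 5.54% in control shRNA cells. For genes called lower they were 6.08% and 5.64%, and a count of 1 of 10 is near these.

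**Figure D5:**
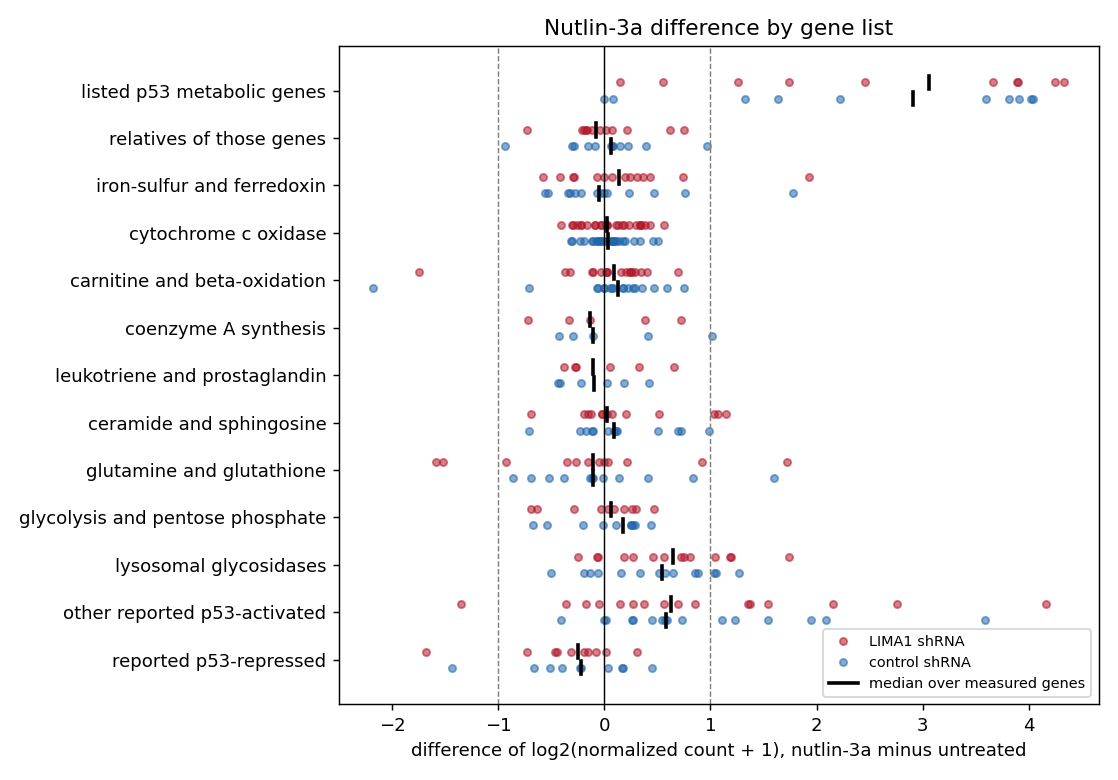
Difference of log2(normalized count + 1), nutlin-3a minus untreated, of every measured gene in 13 lists, with LIMA1 shRNA cells above control shRNA cells in each row and black bars at the median. The medians of the 10 genes are 3.06 and 2.91, and those of the other lists lie between -0.25 and 0.65.

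Over the 4 libraries, the pattern nearest to the mean pattern of the 10 genes was that of PHLDA3, followed by APOBEC3C, LACC1, DFNB31 and ARVCF. Likeness was the Euclidean distance between log2(normalized count + 1) values after each gene's own mean was removed, and PHLDA3 lay at 0.049. PHLDA3 had 3800.2 and 3134 normalized counts with nutlin-3a in LIMA1 and control shRNA cells, against 609 and 581.6 untreated. For single genes, the nearest of all measured genes was KANK3 for FDXR (0.13), BTG2 for TP53I3 (0.075), GPX1 for PANK1 (0.056), BTD for SCO2 (0.017), ZSWIM3 for CPT1C (0.058), LYNX1 for GLS2 (0.23) and NIPAL4 for ALOX5 (0.40). The noncoding models lnc-UBL5-2 (0.12), lnc-PCM1-4 (0.015) and lnc-C5orf17-8 (0.26) were nearest to C12orf5, FUCA1 and ACER2. Within the group FDXR and TP53I3 were nearest to each other, at 0.26, as were PANK1 and FUCA1, at 0.42, and SCO2 and CPT1C, at 0.55. NIPAL4 had 155 normalized counts in LIMA1 shRNA cells against 53.6 in control shRNA cells with nutlin-3a. Untreated, it had low values of 7.92 against 3.77. NIPAL4 was picked for its likeness to ALOX5 over these same values, so the shared higher level in LIMA1 shRNA cells follows from that choice.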

How the data were processed

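RNA sequencing of 4 libraries was read as 1 value per gene model and library. The deposited values are a signal on a linear scale. Their steps are those of fragments scaled by 1 factor in each library (0.943 to 1.07 per fragment). Between 0.5 and 1000 fragments, 85.5% to 86.3% of values lay within 0.1 of a whole fragment, too few for a count test. Genes with other values, SCO2 and PANK1 among the 10, were taken to share reads. Per the submitters' processing notes, which give neither roles nor an order, Cuffnorm 2.2.1, Bowtie2 2.0.12 and bcl2fastq 1.8.3 are listed beside build hg19. No source used here names the annotation.

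Differences are of log2(normalized count + 1), called at 1 or more or at -1 or less, over the 12742 genes with a mean of at least 30. They understate the change of low genes. Ratios carry exact Clopper-Pearson 95% intervals of fragment counts, and differences of responses exact conditional ones, from 1 library per group. The genes and lists were chosen with earlier results of these data known. Named genes are the 10, LIMA1, MDM2, CDKN1A, the genes of 12 lists called in a nutlin-3a or LIMA1 contrast, up to 4 others of each list with the highest mean, and the nearest patterns. The remaining listed genes enter counts and medians only. The overlapping neighbours, the rest of the measured relatives, ACER1, FDX1, FDX1L, ALOX5AP and LTC4S were added after their values were seen. 1 further relative was left out of the lists and is not reported here. Other pseudocounts, scalings, filters and call sizes were tried. The calling step was tested on simulated data. Python 3.11.15, numpy 2.4.6, pandas 2.3.3, scipy 1.17.1 and matplotlib 3.10.9 were used. Promoter sequences are RefSeq's on GRCh38.p14, another build than the counts.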

Additional observations from a re-analysis of the deposited data

Results flagged for a closer look

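A contrast that ran in opposite directions in both cell lines, or at both treatments, each beyond its counting interval, was looked for in 166 measured genes and seen in 8, without a test of the difference over replicates. Relative to control shRNA cells, TP53I3 in LIMA1 shRNA cells was higher with nutlin-3a and lower untreated, and its response was larger by 0.44 on the log2 scale in LIMA1 shRNA cells. PRODH did the same, with 0.67, as did AGA, with 0.46. For AGA the nutlin-3a difference was also opposite, 0.27 in LIMA1 shRNA cells and -0.19 in control shRNA cells. The nutlin-3a difference was below 0 in LIMA1 shRNA cells and above 0 in control shRNA cells for CRYZ (-0.20, as the difference of the responses), SLC7A11 (-0.26) and DDIT4 (-0.71). DDIT4, GPT2 (-0.90) and SGPL1 (-0.22) were lower in LIMA1 shRNA cells with nutlin-3a and higher in them untreated. These genes were picked out after their values were seen. The difference between the groups was not tested, since each value is a single library.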

How the results depend on the processing

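The counts of called genes with nutlin-3a stayed at 8 of 10 in both lines with pseudocounts of 0.5, 5 and 30, with upper-quartile, median-of-ratios and equal-total scaling, without a filter on low values and at a log2 size of 0.58. Over these settings, 5.01% to 15.7% of all genes were called higher in LIMA1 shRNA cells and 3.84% to 13.5% in control shRNA cells. With a mean of at least 150 the counts were 7 of 8 (4.82% of all genes in LIMA1 shRNA cells and 3.64% in control shRNA cells). They were 7 of 8 among genes with no shared reads, an alternative chosen after seeing the data (6.62% and 5.02%). At a log2 size of 2 they were 6 of 10 (1.93% and 1.53%). For LIMA1 shRNA against control shRNA with nutlin-3a the count of 1 became 2 at a log2 size of 0.58 (4.46% of all genes). It became 0 at a log2 size of 2 (0.220%). Untreated, the count became 2 at 0.58 (3.52% of all genes) and 0 at 2 (0.212%). It was also 0 with pseudocounts of 5 (0.887%) and 30 (0.447%), and with upper-quartile (0.918%) and equal-total scaling (0.950%). The gene lost was ALOX5, whose untreated difference was 1.03, with 0.98 under upper-quartile scaling, 0.99 with equal totals, 0.91 with a pseudocount of 5 and 0.52 with one of 30. The count of 0 for the difference of responses was the same under all of these settings. Between 0.290% and 6.96% of all genes were called higher there. Among the values of single genes and medians under the pseudocounts and scalings, 319 moved by less than counting error and none of the called ones changed sign. The other 11 include the nutlin-3a differences of GLS2 with a pseudocount of 30, at 1.74 in LIMA1 shRNA cells and 1.66 in control shRNA cells. No paired analysis was possible because each group has 1 library. Depth limits GLS2 most, at 5 untreated fragments in LIMA1 shRNA cells and 4 in control shRNA cells.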
